A study of Mus musculus with 6 samples.

Results

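The genes described here are those of the meninges, of fibroblasts and of the collagen family, read on both sides of the mouse entorhinal cortex (EC), left and right. They were the rows of the authors' deposited table whose gene symbol begins like a collagen chain (Col, a type number, the letter a and a chain number, with Col8a1 left out) together with 23 listed genes for meningeal transporters, fibroblast proteins and small proteoglycans. This gave 51 of 20414 rows, which stood for 49 of 18746 genes: 33 collagen chain genes, 15 of the listed genes, and Col4a3bp. The symbol Col4a3bp fits the pattern, but the gene encodes a ceramide transfer protein (current symbol Cert1) and no collagen. The listed genes Fmod, Slc6a13, Slc6a20a, Ptgds, Nov, Lox, Fbln1 and Fbn1 were not analysed here.

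Tissue came from untreated wild-type C57BL/6 mice aged 6 months, with 3 left EC and 3 right EC samples, 1 Affymetrix Mouse Gene 2.0 ST array each. The samples were dissected by anatomical landmarks, and the labels do not say whether the membranes that cover the cortex were removed. The labels call the arrays biological replicates and leave unsaid whether any mouse gave tissue from both sides. The number of arrays limits the precision.

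The meninges are the layered membranes around the brain. Their fibroblasts make collagens and small leucine-rich proteoglycans, and the arachnoid layer forms a barrier whose cells carry transporters for organic ions. Collagens are proteins of 3 chains wound around each other, and the type of chain sets whether they build fibrils, basement membrane networks or beaded filaments. In the cortex itself collagens lie mainly around blood vessels and at the surface.

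For named genes the authors' deposited table gives 1 signed fold and 1 p-value per row, and no value for each array. No level or replicate SD can therefore be given for a named gene, and whether fibroblast markers stood above background was not analysed here. A positive fold was taken to mean a higher value in the left EC. This direction is likely, since the heading of the authors' deposited table reads left versus right. The largest difference also lay on the right in both files, at 5.59-fold by the authors' deposited table and 5.57-fold in the unnamed rows of the per-array values. An unadjusted p of a gene is always the deposited one. In the per-array values 0 of 41345 rows passed limma's test at an adjusted p of 0.05, and 3023 had an unadjusted limma p under 0.05. In bulk tissue, fewer cells of a type and less RNA per cell cannot be told apart.

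The listed meningeal and fibroblast genes had mostly folds to the left. Of the collagen rows 29 of 34 (85.3%) lay within 1.1-fold, a share near the 85.8% of all rows. Of the 16 rows of the listed genes 14 were higher in the left EC, with a median log2 fold of 0.25, and of the 34 collagen rows 25 were, with a median of 0.02. Over all rows 54.1% were higher in the left EC and the median was 0.01. A fold of at least 1.2 to the left was found for 6 of the 51 rows, all of them listed genes, and for 1.0% of all rows. The same fold to the right was found for 0 of the 51 rows and for 1.57% of all rows.

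No member passed adjustment. After Benjamini-Hochberg adjustment of the deposited p-values over all rows, 0 of the 51 rows were under 0.05, as were 0% of all rows, and the smallest adjusted p of a member was 0.574. Before adjustment 3 of the 51 rows (5.88%) had a deposited p under 0.05, below the 8.13% of all rows. Of these, 2 were higher in the left EC (3.81% of all rows were) and 1 was higher in the right EC (4.33% of all rows were). The members and lists were chosen with earlier results of these data known, so the counts describe these genes and test nothing.

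**Figure D1:**
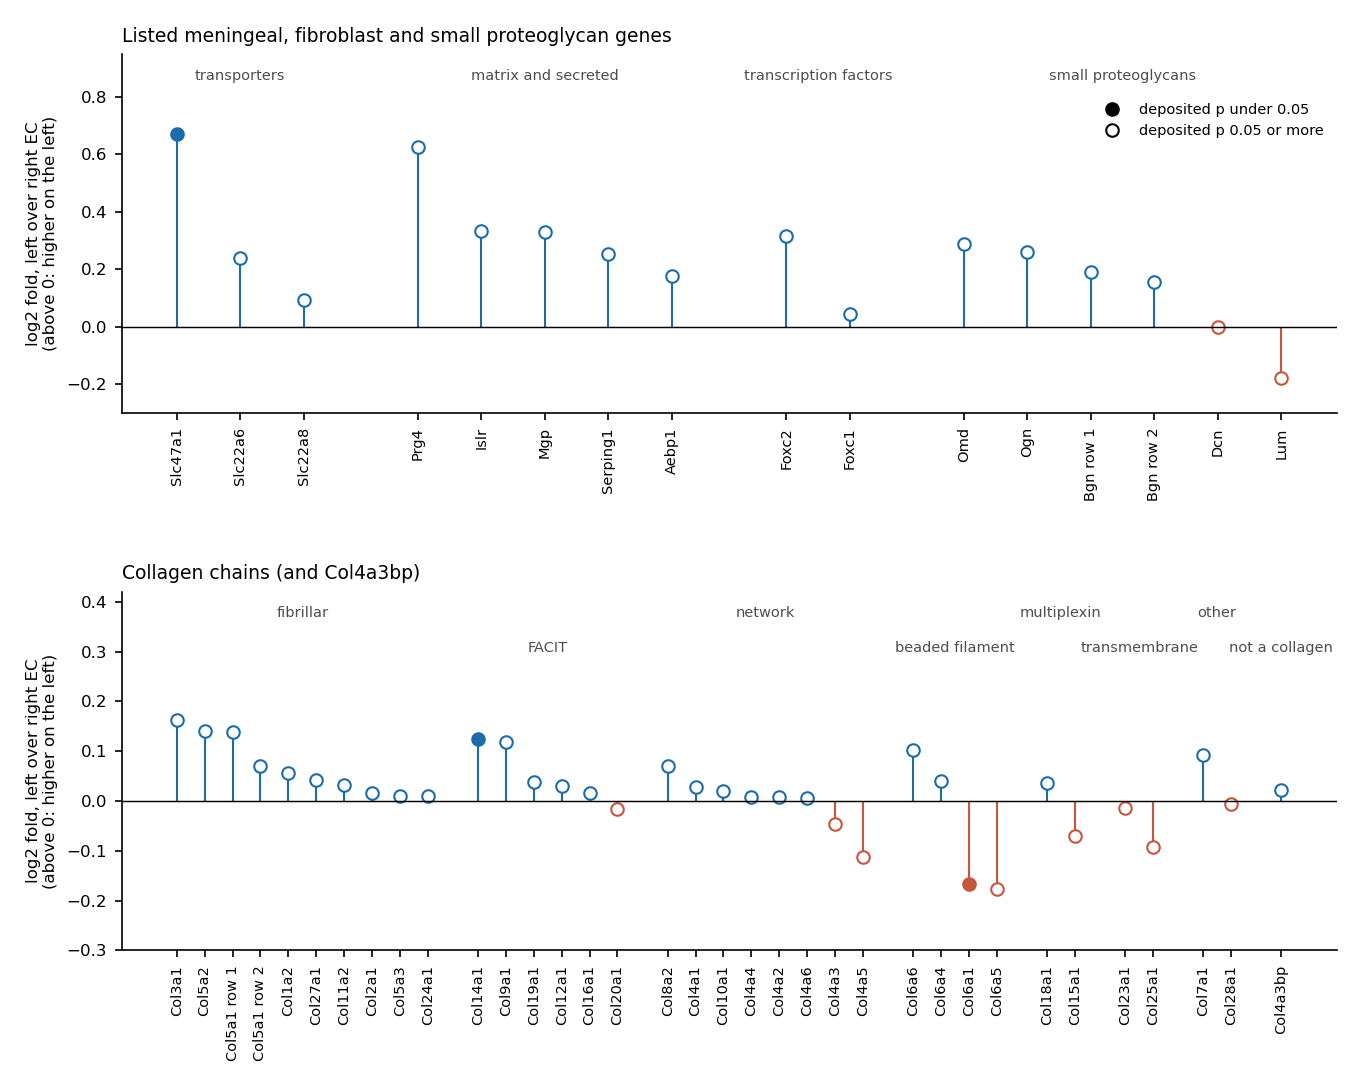
Log2 fold, left over right EC, of each of the 51 rows, grouped by the role of the gene. Each point is 1 row of the authors' deposited table, blue above 0 and red below, and filled where the deposited p was under 0.05. The listed genes in the upper panel run from -0.18 to 0.67, and the collagens in the lower panel, on a narrower axis, from -0.18 to 0.16.

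Transporters of the listed group were higher in the left EC in all 3 measured genes. Slc47a1 encodes MATE1, which moves organic cations out of cells in exchange for protons. It was 1.59-fold higher in the left EC by the authors' deposited table (deposited p = 0.0308, adjusted p = 0.597), and by fold it ranked 1 from the left among all 20414 rows. Slc22a6 and Slc22a8 encode the organic anion transporters OAT1 and OAT3. Slc22a6 was 1.18-fold higher in the left EC by the authors' deposited table (p = 0.189). Slc22a8 was 1.07-fold higher in the left EC there (p = 0.519 by the authors' deposited table). Slc47a1 alone of the transporters had an unadjusted p under 0.05.

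Slc22a6 and Slc22a8 neighbour each other on chromosome 19 with 0 protein-coding genes between them, and Slc47a1 lies next to Slc47a2, which encodes MATE2. Slc47a2 was 1.09-fold higher in the left EC by the authors' deposited table (p = 0.0937). Both pairs thus had folds to the left in each partner. The windows around the start of the neighbouring anion transporter genes are shown because the pair shares a direction. They run from 250 bases before to 50 after the start, from RefSeq on build GRCm38.p6, at chr19:8617746-8618045 and chr19:8592932-8593231, both on the plus strand. Capitals mark the letters of a CCAAT box, of the TATA element TATAAA and of the Sp1-type element GGGCGG, each searched on both strands.
Slc22a6: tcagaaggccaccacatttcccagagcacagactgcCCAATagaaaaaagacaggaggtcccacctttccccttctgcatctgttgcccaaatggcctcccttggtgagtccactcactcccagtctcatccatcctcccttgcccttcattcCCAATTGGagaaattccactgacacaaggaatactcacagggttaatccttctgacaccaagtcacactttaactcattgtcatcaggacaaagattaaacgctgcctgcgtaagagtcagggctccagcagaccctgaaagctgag
Slc22a8: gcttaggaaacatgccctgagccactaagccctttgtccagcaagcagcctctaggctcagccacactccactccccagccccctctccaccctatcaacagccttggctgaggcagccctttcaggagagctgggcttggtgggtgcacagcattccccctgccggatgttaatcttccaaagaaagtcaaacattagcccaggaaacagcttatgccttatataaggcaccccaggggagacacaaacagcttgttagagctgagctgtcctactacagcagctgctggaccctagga
The Slc22a6 window held 3 CCAAT matches, of which 2 overlap on opposite strands, and the Slc22a8 window held 0 exact matches of these strings. Only the exact strings were searched, so a variant such as the tatataag in the Slc22a8 window was not marked.

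Foxc1 and Foxc2 encode related forkhead transcription factors of mesenchyme, and Foxc1 is needed for the meninges to form in the mouse embryo. Foxc2 was 1.24-fold higher in the left EC by the authors' deposited table (p = 0.0855). Foxc1 was 1.03-fold higher in the left EC (p = 0.617 by the authors' deposited table). Neither passed adjustment, and the difference between these genes was not tested.

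Secreted and matrix proteins were higher in the left EC in all 5 measured genes, with a median log2 fold of 0.33, and 3 of the 5 reached 1.2-fold. Prg4 encodes lubricin, the lubricating proteoglycan of joint surfaces. It was 1.54-fold higher in the left EC by the authors' deposited table (p = 0.0545) and ranked 3 from the left by fold among all rows. Islr encodes a secreted leucine-rich protein found in mesenchymal cells, and was 1.26-fold higher in the left EC by the authors' deposited table (p = 0.211). Mgp encodes matrix Gla protein, an inhibitor of calcification. Its fold by the authors' deposited table was 1.26 to the left (p = 0.0868). Serping1, the C1 inhibitor of the complement cascade, was 1.19-fold higher in the left EC by the authors' deposited table (p = 0.222). Aebp1, a collagen-binding protein of connective tissue, was 1.13-fold higher in the left EC by the authors' deposited table (p = 0.400). These 5 genes had larger folds than most rows and none had an unadjusted p under 0.05.

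Small leucine-rich proteoglycans, which bind collagen fibrils and set their diameter and spacing, were divided. Omd, encoding osteomodulin, was 1.22-fold higher in the left EC by the authors' deposited table (p = 0.179). Ogn, encoding osteoglycin (mimecan), was 1.198-fold higher in the left EC by the authors' deposited table (p = 0.371). Bgn, encoding biglycan, had 2 rows by the authors' deposited table, 1.14-fold and 1.11-fold higher in the left EC (p = 0.0559 and 0.269). Decorin and lumican, the small proteoglycans commonly used to mark fibroblasts, did not lean to the left. Dcn was 1.002-fold higher in the right EC by the authors' deposited table (p = 0.974). Lum was 1.13-fold higher in the right EC by the authors' deposited table (p = 0.0639). Of the 6 rows 4 were higher in the left EC, with a median log2 fold of 0.17, and 0 passed adjustment.

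Of the small proteoglycan and related genes outside the listed ones, 4 of 10 rows were higher in the left EC, with a median log2 fold of -0.04. Ecm2, a leucine-rich matrix protein, was 1.15-fold higher in the right EC by the authors' deposited table (p = 0.0157). Aspn, encoding asporin, was 1.14-fold higher in the right EC by the authors' deposited table (p = 0.146). Prelp, which anchors basement membranes to connective tissue, had 2 rows, 1.14-fold and 1.02-fold higher in the right EC by the authors' deposited table (p = 0.0719 and 0.681). Chad, encoding chondroadherin, was 1.08-fold higher in the right EC (p = 0.0542), and Podnl1 1.09-fold higher in the left EC (p = 0.227), by the authors' deposited table.

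Ecm2, Aspn, Omd and Ogn follow each other on chromosome 13 with 0 protein-coding genes between neighbours. Along this row of genes Ecm2 and Aspn had folds to the right, and Omd and Ogn folds to the left. The start windows of Omd and Ogn, whose folds had the same side and nearly the same size, are given from RefSeq (GRCm38.p6, plus strand) at chr13:49582212-49582511 and chr13:49607765-49608064. Capitals mark the same motifs.
Omd: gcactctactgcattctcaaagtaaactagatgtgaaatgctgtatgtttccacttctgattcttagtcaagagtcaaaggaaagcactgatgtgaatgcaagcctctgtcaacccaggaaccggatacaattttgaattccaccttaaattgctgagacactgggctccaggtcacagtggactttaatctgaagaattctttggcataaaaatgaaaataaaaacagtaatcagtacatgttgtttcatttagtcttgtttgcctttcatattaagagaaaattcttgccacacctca
Ogn: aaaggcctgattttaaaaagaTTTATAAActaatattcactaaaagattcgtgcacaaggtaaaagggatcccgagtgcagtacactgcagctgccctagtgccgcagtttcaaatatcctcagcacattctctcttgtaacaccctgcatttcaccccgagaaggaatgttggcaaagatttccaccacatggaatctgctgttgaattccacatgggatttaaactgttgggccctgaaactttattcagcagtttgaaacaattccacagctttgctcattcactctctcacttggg
The Omd window held 0 matches, and the Ogn window held 2 overlapping TATAAA matches on opposite strands, well upstream of the start.

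Fibrillar collagens are the rope-like collagens of connective tissue. All 10 rows analysed, of 9 genes among 11 listed, were higher in the left EC. The folds were small, with a median log2 fold of 0.05, and Col1a1 was not analysed here. Col3a1, the chain of type III collagen, was 1.12-fold higher in the left EC by the authors' deposited table (p = 0.108). Col5a2 and Col5a1 encode chains of type V collagen, which starts new fibrils. Col5a2 was 1.102-fold higher in the left EC by the authors' deposited table (p = 0.0720). Col5a1 had 2 rows, 1.101-fold and 1.050-fold higher in the left EC by the authors' deposited table (p = 0.223 and 0.476). Col1a2, a chain of type I collagen and a common fibroblast marker, was 1.04-fold higher in the left EC by the authors' deposited table (p = 0.489). The other fibrillar chains analysed, Col27a1, Col11a2, Col2a1, Col5a3 and Col24a1, lay between 1.01-fold and 1.03-fold to the left by the authors' deposited table. The fibrillar rows thus shared the left side, where 54.1% of all rows lay, but 0 of 10 had an unadjusted p under 0.05. For chains with log2 folds near 0, such as Col24a1, Col5a3 and Col2a1, the side is not settled.

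FACIT collagens, which sit on the surface of fibrils, held the collagen with the smallest p. Col14a1 was 1.09-fold higher in the left EC by the authors' deposited table (p = 0.0133, adjusted p = 0.574). Col9a1 was also 1.09-fold higher in the left EC, with a deposited p of 0.236 by the authors' deposited table. Col19a1 was 1.03-fold higher in the left EC by the authors' deposited table (p = 0.487). Col12a1 and Col16a1 were 1.02-fold and 1.01-fold higher in the left EC, and Col20a1 1.01-fold higher in the right EC, by the authors' deposited table. Of the 6 FACIT rows, which stood for 6 of 10 listed genes, 5 were higher in the left EC, with a median log2 fold of 0.03.

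Network collagens include type IV, the sheet-forming collagen of the basement membrane around every brain capillary. Col4a1 and Col4a2, whose chains form the common type IV molecule, were 1.02-fold and 1.01-fold higher in the left EC by the authors' deposited table (p = 0.565 and 0.895). Col4a3 was 1.03-fold higher in the right EC and Col4a4 1.01-fold higher in the left EC by the authors' deposited table (p = 0.572 and 0.884). Col4a5 was 1.08-fold higher in the right EC, and Col4a6 1.004-fold higher in the left EC, by the authors' deposited table (p = 0.199 and 0.943). Col8a2 and Col10a1, which form short-chain networks, were 1.05-fold and 1.01-fold higher in the left EC by the authors' deposited table. All 8 network rows lay within 1.1-fold.

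The genes Col4a1 and Col4a2 neighbour each other on chromosome 8 and run in opposite directions. Their start windows, shown because they share 78 bases, are given from RefSeq (GRCm38.p6), each on its own strand, with Col4a1 on the minus strand at chr8:11312777-11313076 and Col4a2 on the plus strand at chr8:11312555-11312854. Capitals mark the same motifs.
Col4a1: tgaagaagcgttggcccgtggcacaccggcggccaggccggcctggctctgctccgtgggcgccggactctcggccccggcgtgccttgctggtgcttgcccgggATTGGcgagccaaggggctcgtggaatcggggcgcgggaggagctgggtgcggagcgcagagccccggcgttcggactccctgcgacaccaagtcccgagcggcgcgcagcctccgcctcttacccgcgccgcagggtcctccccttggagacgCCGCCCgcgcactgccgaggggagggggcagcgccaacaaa
Col4a2: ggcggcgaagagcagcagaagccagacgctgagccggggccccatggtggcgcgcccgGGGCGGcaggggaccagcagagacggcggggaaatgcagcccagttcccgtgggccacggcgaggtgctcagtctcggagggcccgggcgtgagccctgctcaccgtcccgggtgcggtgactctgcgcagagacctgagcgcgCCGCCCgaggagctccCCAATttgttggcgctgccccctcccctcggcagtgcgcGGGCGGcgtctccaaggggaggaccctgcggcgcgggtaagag
The shared bases held 1 GGGCGG match, which appears as its reverse complement in the Col4a1 line. Of the 32851 mouse windows of this length 37.4% held CCAAT, 13.6% TATAAA and 35.7% GGGCGG on either strand. Of the 39 windows found for 37 members, 33.3%, 10.3% and 56.4% did. A match is a run of letters and not a measured binding site.

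Beaded filament collagens are the type VI chains, which surround cells in many tissues. Of 6 listed genes 4 were analysed here, and Col6a2 and Col6a3 were not among them. The analysed type VI chains held the collagens with the largest folds to the right. Col6a1 was 1.12-fold higher in the right EC by the authors' deposited table (p = 0.0425, adjusted p = 0.609). Col6a5 was 1.13-fold higher in the right EC by the authors' deposited table (p = 0.156). Col6a6 was 1.07-fold and Col6a4 1.03-fold higher in the left EC by the authors' deposited table (p = 0.108 and 0.777). Col6a4, Col6a5 and Col6a6 follow each other on chromosome 9, so the middle gene of this run had a fold on the opposite side to both neighbours.

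The remaining collagen rows and Col4a3bp lay within 1.1-fold. Col18a1 and Col15a1, the multiplexins of vascular basement membranes, were 1.03-fold higher in the left EC and 1.05-fold higher in the right EC by the authors' deposited table (p = 0.712 and 0.427). Col25a1 and Col23a1, transmembrane collagens, were 1.07-fold and 1.01-fold higher in the right EC by the authors' deposited table (p = 0.418 and 0.815). Col7a1, which forms the anchoring fibrils of skin, was 1.07-fold higher in the left EC, and Col28a1 1.004-fold higher in the right EC, by the authors' deposited table (p = 0.0671 and 0.911). Col4a3bp was 1.02-fold higher in the left EC by the authors' deposited table (p = 0.574).

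**Figure D2:**
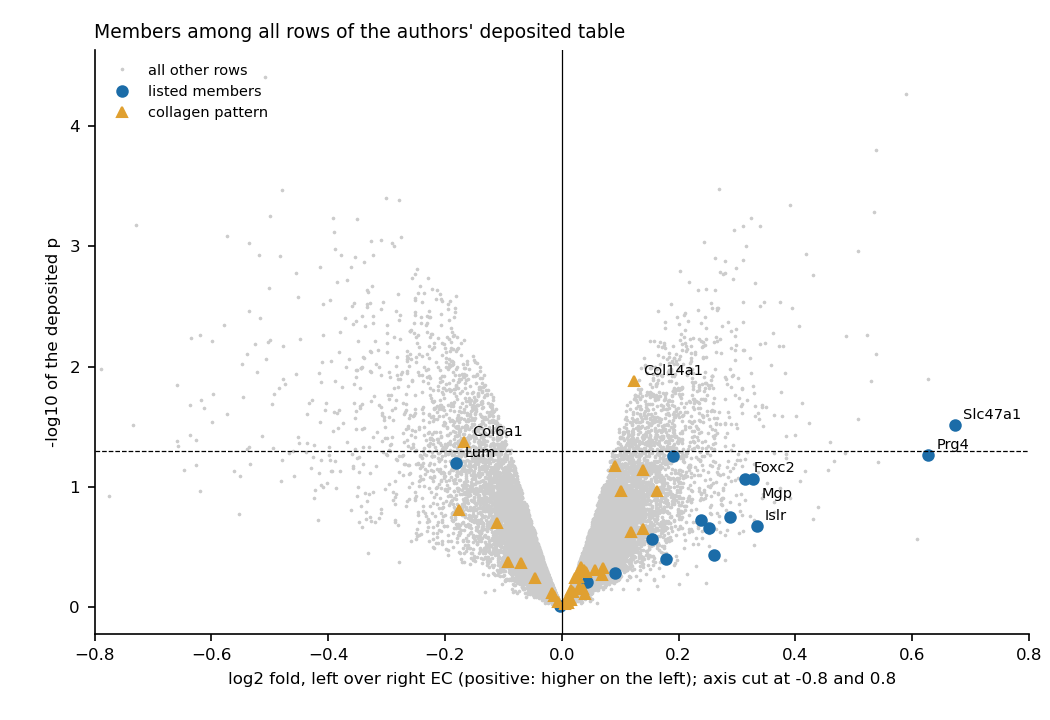
Fold and deposited p of the members (blue circles, listed genes; orange triangles, genes of the collagen pattern) over all other rows of the authors' deposited table (grey). The horizontal axis is the log2 fold, left over right EC, shown from -0.8 to 0.8, and the vertical axis is -log10 of the deposited p, with a dashed line at 0.05. Slc47a1, Col14a1 and Col6a1 lie above the line, and Slc47a1 and Prg4 lie furthest to the side of higher values on the left.

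Genes that neighbour each other on a chromosome were compared because several members arose by gene duplication. Among pairs of members with at most 3 protein-coding genes between them, 6 of 11 had folds on the same side and 5 on opposite sides. Col3a1 and Col5a2, with 0 coding genes between them, were alike in fold, with log2 folds of 0.16 and 0.14. Dcn and Lum, neighbours on chromosome 10, had log2 folds of 0.00 and -0.18 once rounded. Kera, the keratocan gene beside Lum, was 1.02-fold higher in the left EC by the authors' deposited table (p = 0.632). For genes with log2 folds near 0, such as Col4a4, Col4a3 and Dcn, the side is not settled. The counts of pairs on the same and on opposite sides rest partly on such genes.

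**Figure D3:**
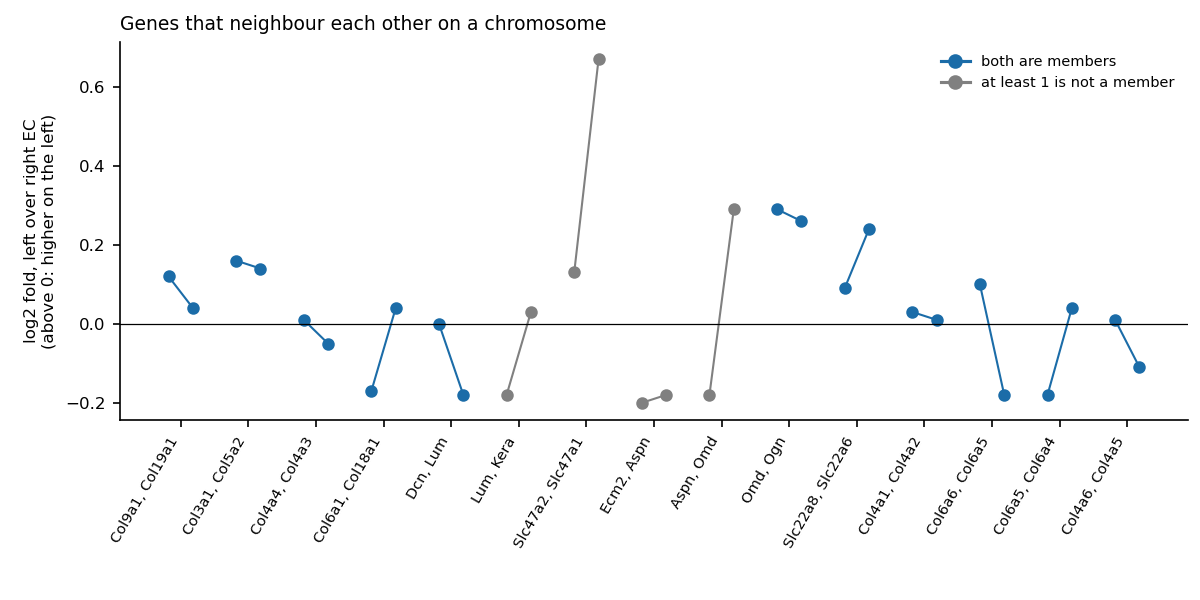
Log2 folds, left over right EC, of genes that neighbour each other, with a line joining the genes of a pair in the order of their names. Blue marks pairs of members and grey marks pairs in which at least 1 gene is not a member. Omd and Ogn both lie above 0, next to Ecm2 and Aspn, which both lie below 0.

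Genes that make, process and crosslink collagen did not lean to the left. Of 16 rows for collagen biosynthesis enzymes and chaperones 6 were higher in the left EC, with a median log2 fold of -0.02 and 15 within 1.1-fold. Crtap, which takes part in prolyl hydroxylation of collagen, was 1.16-fold higher in the right EC by the authors' deposited table (p = 0.0259). Sparc, a collagen-binding matricellular protein, was 1.09-fold higher in the right EC (p = 0.11), and the procollagen peptidase genes Adamts3 1.06-fold higher in the right EC and Adamts14 up to 1.05-fold higher in the left EC (p = 0.158 and 0.246), by the authors' deposited table. Of 18 rows for crosslinking and elastic fibre genes 8 were higher in the left EC (median -0.01). Among them Efemp1, encoding fibulin-3, was 1.23-fold higher in the left EC and the lysyl oxidase relative Loxl4 1.098-fold by the authors' deposited table (p = 0.0297 and 0.0287). Ltbp2 was up to 1.08-fold higher in the left EC and Efemp2 1.08-fold higher in the right EC by the authors' deposited table (p = 0.0856 and 0.154).

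Basement membrane and adhesive proteins were evenly divided, with 9 of 18 rows higher in the left EC (median -0.01). Thbs2, encoding a thrombospondin, was 1.15-fold higher in the left EC by the authors' deposited table (p = 0.0768). Postn, encoding periostin, and the laminin chain Lama5 were 1.16-fold and 1.09-fold higher in the right EC by the authors' deposited table (p = 0.209 and 0.0549). Of 6 rows of the CCN family 5 were higher in the left EC (median 0.06), with Ctgf up to 1.098-fold and Cyr61 1.08-fold to the right by the authors' deposited table (p = 0.113 and 0.193). Wisp1 and Wisp2 were 1.07-fold and 1.05-fold higher in the left EC by the authors' deposited table.

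Other genes known from meningeal fibroblasts had 17 of 26 rows higher in the left EC and a median log2 fold of 0.07. Aldh1a2, the retinoic acid synthesising enzyme of the meninges, was 1.22-fold higher in the left EC by the authors' deposited table (p = 0.186). The mesenchymal transcription factor Twist1 was 1.12-fold higher in the left EC by the authors' deposited table (p = 0.0184). Nnat, with 2 rows, was up to 1.11-fold higher in the right EC and Igfbp2 1.14-fold by the authors' deposited table (p = 0.0379 and 0.125). Igfbp2 is also counted among the choroid plexus markers below. Pdgfra, a receptor found on fibroblasts and on oligodendrocyte precursors, was 1.06-fold higher in the right EC by the authors' deposited table (p = 0.121). Of the 9 rows of the short fibroblast marker list, most of them members, 6 were higher in the left EC, with a median of 0.06.

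Arachnoid barrier genes had folds on both sides, with 3 rows at least 1.2-fold higher in the left EC and 3 on the right among 17. Over all rows 1.0% reached that fold to the left and 1.57% to the right. Cdh1, the epithelial cadherin of the arachnoid barrier, had 2 rows, 1.33-fold and 1.13-fold higher in the left EC by the authors' deposited table (p = 0.0888 and 0.0382). Rnf152 was up to 1.16-fold higher in the left EC by the authors' deposited table (p = 0.0240). Slc16a9, a monocarboxylate transporter, was 1.25-fold higher in the right EC by the authors' deposited table (p = 0.000896, adjusted p = 0.567). Krt18, a keratin of simple epithelia, had 2 rows, 1.49-fold and 1.06-fold higher in the right EC by the authors' deposited table (p = 0.0247 and 0.534). The choroid plexus markers given below also lay to the right, and the part of that tissue in the folds of this list was not tested. Of 11 transporters related to the listed ones 7 were higher in the left EC (median 0.02). Slc22a2 and Slc47a2 are counted both there and among the arachnoid barrier genes. Slc22a2, an organic cation transporter, was 1.24-fold higher in the left EC (p = 0.160), Slc6a11, a GABA transporter, 1.09-fold higher in the right EC (p = 0.0370), and Slc22a4 1.07-fold higher in the right EC (p = 0.130), by the authors' deposited table.

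Markers of other cells and tissues that a dissected sample could hold lay on both sides. Choroid plexus markers were higher in the right EC in 9 of 9 rows, a median log2 fold of -1.05 over a range of -2.48 to -0.18, led by Ttr at 5.59-fold, F5 at 3.23-fold and Kl at 2.82-fold by the authors' deposited table (p = 0.0392, 0.0260 and 0.0268). The choroid plexus may also make the members Slc22a8, Mgp and Serping1. Their folds by the authors' deposited table were 1.07, 1.26 and 1.19 to the left (p = 0.519, 0.0868 and 0.222). None of these genes had an unadjusted p under 0.05, so their side is not settled. Blood markers were higher in the left EC in 5 of 5 rows (median 0.16), with Hbb-b1 up to 1.24-fold by the authors' deposited table (p = 0.232). Markers of macrophages at the brain's borders were higher in the left EC in 4 of 4 rows (median 0.10), with Cd163 at 1.11-fold by the authors' deposited table (p = 0.114). Mural cell markers were higher in the right EC in 5 of 5 rows and endothelial markers in 3 of 5, all 10 within 1.1-fold. Astrocyte markers were higher in the right EC in 5 of 5 rows (median -0.07), and neuron markers on the left in 4 of 6 (median 0.04). The part of these cells in the folds of the members was not tested.

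**Figure D4:**
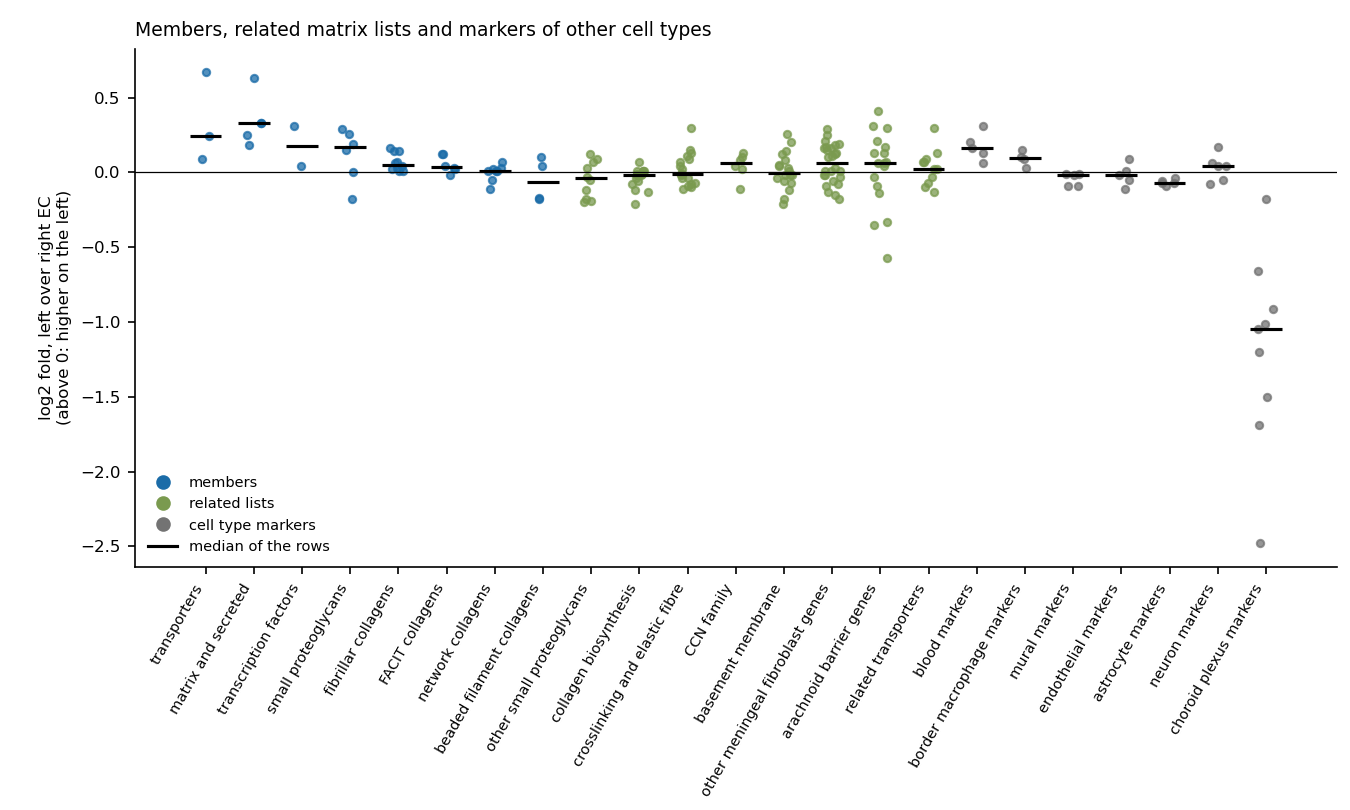
Log2 fold, left over right EC, of the rows of member groups (blue), of related matrix, meningeal and transporter lists (green) and of markers of other cell types (grey), with a black bar at each median. The multiplexin, transmembrane and other collagens and Col4a3bp are not drawn. The medians of the blue groups run from -0.06 for beaded filament collagens to 0.33 for matrix and secreted genes, and the choroid plexus markers lie apart at a median of -1.05.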

How the data were processed

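Affymetrix Mouse Gene 2.0 ST arrays were run on total RNA of each EC side, with 3 arrays a side, per the labels' protocols. The authors deposited an all-genes table, made with Ingenuity iReport per the series description, whose p-values and signed folds compare the sides. The fold is a signed score in that deposited file, where a value below 0 stands for right over left, and it was turned into a log2 fold. The authors also deposited log2 signals of 41345 unnamed rows for 6 arrays, whose log2 scale was inferred from the values. The array medians were 7.24 to 7.28. Not given in the sources used here are the summarization, the normalization and the test that made the deposited p-values. Fold and p were looked for in 5 candidate tests on the per-array values (within 0.005 in log2 fold and 1% in p). A match to some unnamed row was found for 74.5% to 92.3% of all 20414 rows, depending on the test, and for 6.02% to 8.43% of the 166 rows over 1.3-fold. A median of 1356 unnamed rows lay within that fold tolerance over all rows, and 22 over the 166, so a match over all rows says little. No candidate was taken as the test used, and no interval was derived.

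Members were found by symbol, and all rows of the table were kept, of which 291 repeat a gene, fold and p. Deposited p-values were adjusted by Benjamini-Hochberg over all 20414 rows. The per-array values were fitted by limma's two-sided moderated test (version 3.58.1, under R 4.3.3), a script first tested on simulated data. The limma p-values set the difference between the sides against the spread between samples of a side. Which spread the deposited p-values rest on is not known, since their test is not given. The plan foresaw per-array values for members, which could not be given because the array rows have no gene names. The members and lists were chosen with earlier results of these data known. Named were all members, and in related lists up to 3 genes by smallest p with the largest fold each way, except some genes that are not reported here. Promoter windows and gene order came from RefSeq (GRCm38.p6), where 49 of 49 member genes matched by gene ID. Figures were drawn with matplotlib 3.10.9.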

Additional observations from a re-analysis of the deposited data

How the results depend on the processing

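No member passed adjustment with 1 value per gene, with Bonferroni adjustment or without Col4a3bp. With 1 value per gene, 3 of 49 members (6.12%) had an unadjusted p under 0.05, below the 7.87% of all genes. Without Col4a3bp the count of rows was also 3, against 8.13% of all rows. At a deposited p under 0.01 the count was 0 and at 0.1 it was 10, against 1.66% and 14.8% of all rows. The 6 members past 1.2-fold on the left (11.8%, against 1.0% of all rows) became 15 at 1.1-fold (29.4%, against 7.38%), 2 at 1.3-fold (3.92%, against 0.181%) and the same 2 genes, Slc47a1 and Prg4, at 1.5-fold (against 0.0245%). On the right 3 were past 1.1-fold (5.88%, against 6.79%). These changes follow from the bounds themselves. The median log2 fold of 0.04 over all members was 0.25 over the listed members only and 0.02 over the collagens only. It was 0.04 without Slc47a1 and Prg4, an alternative chosen after seeing the data. Without Slc22a8, Mgp and Serping1, set aside because the choroid plexus may make them, it was also 0.04. A median over all members can hardly move when so few rows are left out, so these values say little about those genes. The median of the listed members was not computed without them. Centring on the median of all rows left the counts at 1.2-fold as they were. No row in the members had a symbol standing for several genes, so that alternative was not run.

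Limma called 0 rows of the per-array values under every alternative run, where the count at an unadjusted p was 3023 in the fit as reported. That count was 1808 when rows above the median signal alone were fitted (fewer rows were tested), and 2104 to 3829 when 1 array was left out. With the replicate number as a block it was 2790. Deviations of left and right samples with equal replicate numbers had correlations of 0.0182, -0.0923 and 0.0456. For unequal numbers the correlations ran from -0.116 to 0.0949. The labels name no pairs, so the numbers were not taken as pairs. These correlations cannot settle whether any mouse gave tissue from both sides. For named genes neither a blocked fit nor leaving out an array could be run without per-array values.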
